A study of Mus musculus with 36 samples.

Results

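Mesenteric lymph nodes of mice treated for 35 days with the soluble lymphotoxin-beta receptor were compared with nodes of mice given phosphate-buffered saline (PBS, titled day 0). RNA was measured on 2 Affymetrix oligonucleotide arrays that carry different probe sets, called here array A and array B. The samples were taken by title: 3 day 35 and 3 PBS samples on each array, which makes 12 of the 36 samples in the series, 6 at day 35 and 6 given PBS. The other samples came from days 1, 2, 3 and 27 of the same treatment and entered the fit for its estimate of the spread. The soluble receptor, sLTbetaR-Ig in the series title, acts as a decoy that binds the ligands in place of the receptor on cells. The labels name no strain, sex, age, dose or route. They also do not say if each sample was its own mouse. Every p-value of the main fit thus reflects only how the samples of all times on an array spread within their groups, which may be technical. The labels describe PBS nodes at day 0 only and no other injected protein, so 35 days of decoy, later harvest, older age and exposure to a foreign protein cannot be told apart.

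The lymphotoxin-beta receptor sits on stromal and endothelial cells of lymphoid organs. Its ligands are carried by lymphocytes and by lymphoid tissue inducer cells, and its signal runs mainly through the noncanonical NF-kB pathway, in which the kinase NIK (gene Map3k14) leads to processing of the Nfkb2 product and to activity of its partner RelB. In adult lymph nodes this signal maintains follicular dendritic cells, the stromal cells that hold antigen in B cell follicles, and high endothelial venules, where lymphocytes leave the blood for the node.

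At day 35 more transcripts were lower than higher. On array A 900 of 12231 tested probe sets differed from PBS, which is 7.36% (limma, Benjamini-Hochberg adjusted p under 0.05). Of these 217 were higher (1.77%) and 683 lower (5.58%). On array B 449 of 12516 differed (3.59%), 88 higher (0.703%) and 361 lower (2.88%). With the replicate number as a block, which the main fit did not have, the count on array B was 1327, made of 463 higher and 864 lower. The changes were small: the median log2 change of the called probe sets was 0.34 for higher and -0.39 for lower ones on array A, and 0.43 and -0.49 on array B. A change of at least 1 on the log2 scale was reached by 6 calls on array A and 8 on array B, all of them lower. Nearly every call had no overlap between the groups, 896 of 900 on array A and 447 of 449 on array B. Lack of overlap therefore adds little to a call, and the largest changes named below were chosen for it. Its share over all tested probe sets was not counted. Higher calls made up 24.1% of all calls on array A, or 11.4% after each array was set to a common median.

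The calls rested on few arrays. Without day 35 replicate 2 only 333 were made on array A, without PBS replicate 3 395 and without PBS replicate 2 481. On array B the count was at most 239 whichever of the 6 arrays was left out, and it was lowest, at 125, without PBS replicate 2. Calls that held with each of the 6 arrays left out in turn numbered 26 higher and 244 lower on array A, and 3 higher and 102 lower on array B. Where the call of a gene described below did not hold in this way, the arrays that ended it are named. The deposited intensities were on a similar scale across all arrays of a table, with array medians of 273 to 299.5 (array A) and 149.9 to 165.2 (array B). The ratio of the 3′ to the 5′ control probe set of Actb, a control for RNA quality and labeling, averaged 1.13 ± 0.0160 in day 35 samples and 1.01 ± 0.0312 in PBS samples on array A (SD, n = 3 each). On array B it averaged 1.21 ± 0.0214 in day 35 samples and 1.04 ± 0.0114 in PBS samples, and the groups did not overlap on either array. The same ratio of Gapdh averaged 1.02 in day 35 samples and 1.01 in PBS samples on array A, and 1.07 in both groups on array B, with overlap on both.

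Lymph node markers were well detected at day 35. Cd3e, a chain of the T cell receptor complex, averaged 1992 ± 73.3 intensity units in day 35 samples and 1804 ± 74.5 in PBS samples, and Cd79a, a chain of the B cell receptor, 2671 ± 97.2 in day 35 samples and 3408 ± 60.1 in PBS samples (n = 3 each). Cd3d and Cd3g, chains of the same complex as Cd3e, went the other way with no overlap and no call. Their log2 changes were -0.28 (limma adjusted p = 0.0615) and -0.26 (limma adjusted p = 0.0954). For lists of genes, each gene was represented by its brightest tested probe set, on array A where it had one. Of 12401 genes counted this way, 5.26% were called, 1.26% higher and 4.0% lower, and the median log2 change was 0.02. Each list count below is to be read beside these shares.

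Of 12 tested genes of high endothelial venules 4 fell after 35 days of decoy, 0 rose and 8 did not pass, with a list median of -0.08 on the log2 scale, so named members fell and not the list as a whole. The 4 were Glycam1, Madcam1, Ubd and Cd300lg, and each was called whichever single array was left out. Like the other lists, this one was written with earlier results of these data known, so its count is a description only. Glycam1 encodes a mucin of these vessels that carries ligands of L-selectin. It read 2974, 3865 and 3650 intensity units in the 3 day 35 samples, against 5239, 6627 and 5555 in the 3 PBS samples. Every day 35 sample lay below every PBS sample, at 0.601 of the PBS level (log2 change -0.73, SE 0.12, limma adjusted p = 0.0013). Madcam1, the addressin bound by the gut-homing integrin of lymphocytes, read 466.1, 557.6 and 454.2 in day 35 samples, against 736.1, 826.4 and 632 in PBS samples. The groups did not overlap here either (log2 change -0.57, SE 0.10, limma adjusted p = 0.00272). Madcam1 is also made by follicular dendritic cells and marginal stroma and counts in both lists.

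Cd300lg, a receptor of the CD300 family found on endothelium of small vessels, gave the largest fall of the 4. It read 181.3, 186.8 and 208.3 in day 35 samples, against 458.1, 410.3 and 363.7 in PBS samples on array B. The day 35 level was 0.469 of the PBS level (log2 change -1.09, SE 0.11, limma adjusted p = 0.000185). Ubd, a ubiquitin-like modifier induced by inflammatory cytokines, read 606.4, 472.4 and 446.5 in day 35 samples, against 688, 762.6 and 767.9 in PBS samples (log2 change -0.55, SE 0.11, limma adjusted p = 0.00647). The remaining members of the list lay between -0.22 and 0.20. They included the chemokine-binding receptor Ackr1 (-0.05, adjusted p = 0.793) and, among enzymes that build L-selectin ligands, the fucosyltransferase Fut7 (-0.10, adjusted p = 0.434).

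Of 10 tested follicular dendritic cell genes 2 fell, Madcam1 and Cxcl13, 0 rose and 8 did not pass, with a median of -0.01. Cxcl13, the chemokine that draws B cells into follicles, read 1046, 1243 and 938.7 in day 35 samples, against 1574, 1388 and 1408 in PBS samples. The day 35 samples were all lower (log2 change -0.44, SE 0.094, limma adjusted p = 0.00774), and the second probe set of Cxcl13 changed by -0.52 (adjusted p = 0.00676). Mfge8, which follicular dendritic cells secrete and which marks dying cells for uptake, read 3122, 3669 and 3271 in day 35 samples, against 3372, 3621 and 3354 in PBS samples. Its groups overlapped (log2 change -0.04, SE 0.11, adjusted p = 0.851). The complement receptor Cr2 (0.00, adjusted p = 0.99) and the chaperone-like secreted protein Clu (0.10, adjusted p = 0.483) did not pass either. In whole nodes, fewer cells of a type and less RNA per cell cannot be told apart.

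**Figure D1:**
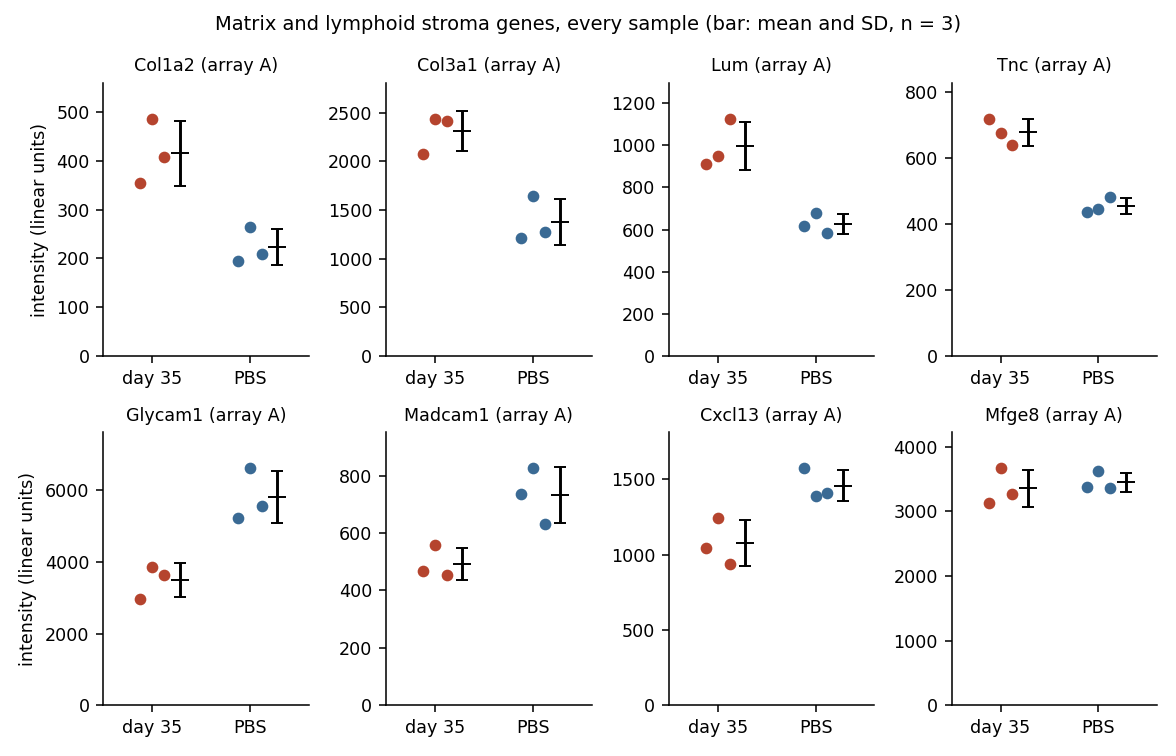
Deposited intensity (linear units) of 4 matrix genes and 4 lymphoid stroma genes in each day 35 sample (left of each panel, red) and each PBS sample (right, blue), with bars for the mean and SD of 3 samples. The matrix genes Col1a2, Col3a1, Lum and Tnc were higher at day 35 with no overlap, Glycam1, Madcam1 and Cxcl13 were lower with no overlap, and Mfge8 overlapped.

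The 250 bases before the transcription start of Glycam1, Madcam1 and Cxcl13 are shown because these falling genes encode vessel and follicle products long used as readouts of the receptor. NF-kB binds sites of the general form GGG, any 5 bases, CC. They are from RefSeq, build GRCm38.p6, written 5′ to 3′ on the gene's strand: Glycam1 at chr15:103565082-103565331 on the minus strand, Madcam1 at chr10:79664309-79664558 and Cxcl13 at chr5:95956689-95956938, both on the plus strand. Capitals mark every match of that form on either strand, with overlapping matches counted.
Glycam1: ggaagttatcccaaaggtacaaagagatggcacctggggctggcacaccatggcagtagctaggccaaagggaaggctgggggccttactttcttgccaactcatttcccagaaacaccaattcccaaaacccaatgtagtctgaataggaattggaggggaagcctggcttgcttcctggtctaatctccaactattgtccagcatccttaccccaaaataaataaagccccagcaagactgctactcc
Madcam1: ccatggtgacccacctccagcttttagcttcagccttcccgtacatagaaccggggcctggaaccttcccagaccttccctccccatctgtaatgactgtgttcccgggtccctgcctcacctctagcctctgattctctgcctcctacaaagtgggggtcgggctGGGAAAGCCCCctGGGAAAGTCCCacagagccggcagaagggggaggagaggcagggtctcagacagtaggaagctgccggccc
Cxcl13: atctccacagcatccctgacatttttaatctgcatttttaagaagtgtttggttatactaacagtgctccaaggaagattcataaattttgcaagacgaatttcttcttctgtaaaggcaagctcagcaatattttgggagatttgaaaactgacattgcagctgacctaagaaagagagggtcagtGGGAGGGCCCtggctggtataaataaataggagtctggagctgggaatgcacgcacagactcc
Madcam1 had 4 overlapping matches, beginning 84, 83, 71 and 70 bases before the start, Cxcl13 had 1 at 63 bases, and the letters did not occur in the window of Glycam1. The motif is loose: 45.4% of 27025 promoter windows of the same length held it.

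Il22ra2 encodes a secreted receptor that binds interleukin-22 and keeps it from its cellular receptor. It read 220.2, 358.5 and 225.6 in day 35 samples, against 415.1, 421.3 and 346.6 in PBS samples on array B. Day 35 replicate 2 lay inside the PBS range, so the groups overlapped, and the log2 change was -0.59 (SE 0.14, limma adjusted p = 0.0229). The call ended without PBS replicate 1 or 2 or without day 35 replicate 1 or 3 (adjusted p up to 0.133). The desmosomal cadherin Dsc3 did not differ beyond the spread, at 307.6 ± 21.1 in day 35 samples and 295 ± 29.0 in PBS samples on array A (log2 change 0.06, adjusted p = 0.74), and its array B probe set changed by -0.29 (adjusted p = 0.278). None of the 6 tested desmosome genes was called.

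Other endothelial genes mostly did not pass. Of 25 tested blood endothelial genes 2 fell and 0 rose, with a median of 0.03. Besides Cd300lg, this was Ramp2, the partner protein of the adrenomedullin receptor, with 935.2, 754.5 and 679.1 in day 35 samples, against 1085, 1159 and 1168 in PBS samples (log2 change -0.54, SE 0.12, limma adjusted p = 0.0104). Without day 35 replicate 2 the adjusted p of Ramp2 was 0.0536. The pan-endothelial cadherin Cdh5 had no settled direction: its brightest probe set stood at 0.21 (adjusted p = 0.16) and its other probe set was called lower (-0.37, adjusted p = 0.0467). With the brightest probe set for each gene, none of the 14 tested lymphatic endothelial genes passed, among them the hyaluronan receptor Lyve1 (-0.05, adjusted p = 0.844) and the secreted glycoprotein Reln (0.20, adjusted p = 0.188).

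In the decoy's own axis, the genes Ltbr, Ltb and Lta were not called at the RNA level. The ligand gene Tnfsf14 had no tested probe set that named it alone, so it was not measured here. Of 12 tested ligands and receptors of the lymphotoxin and TNF families, 1 rose and 0 fell. The receptor Ltbr averaged 624.4 ± 88.6 in day 35 samples and 640 ± 132 in PBS samples (log2 change -0.02, SE 0.13, adjusted p = 0.934). Its ligand chains Ltb (-0.03, adjusted p = 0.901) and Lta (-0.03, adjusted p = 0.914) overlapped between the groups as well. The gene that rose was Tnfrsf13b, a receptor for the B cell factors BAFF and APRIL (log2 change 0.27, adjusted p = 0.0297), and its call ended without any PBS replicate or without day 35 replicate 1 or 2 (up to 0.173). Of 21 NF-kB subunits, inhibitors and kinases none was called, with a median of 0.08. Without 3 samples of low array weight on array A, 4 were called higher. These samples were day 3 replicate 3, day 27 replicate 2 and day 35 replicate 3. Nfkb2 itself read 770.8, 664.5 and 602.3 in day 35 samples, against 834.2, 824.7 and 846.5 in PBS samples. These values did not overlap, but the change of -0.31 (SE 0.098, adjusted p = 0.067) missed the threshold, and its partner Relb changed by -0.02 (adjusted p = 0.907). Adhesion and homing genes beyond the vessel list included 1 further fall, that of the chemokine receptor Cxcr4 (-0.60, adjusted p = 0.0406), which was called only with all arrays or without day 35 replicate 3 (up to 0.166). Vcam1 (-0.02) and Icam1 (0.09), endothelial and stromal ligands of leukocyte integrins, had adjusted p of 0.916 and 0.559.

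The time course put day 35 between the low point and PBS for some of these genes. Glycam1 averaged 5807 in PBS samples, then 4619, 2688, 1954 and 2233 at days 1, 2, 3 and 27, and 3496 ± 465 at day 35. Mfge8 averaged 3449 in PBS samples, 2228, 1548, 1380 and 2261 at days 1, 2, 3 and 27, and 3354 ± 283 at day 35. Cd300lg took another course, with 410.7 in PBS samples, 342, 388.4, 258.6 and 246.8 at days 1, 2, 3 and 27, and its lowest mean, 192.1 ± 14.3, at day 35. All of these days share the same PBS samples.

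Day 35 was therefore also set against day 27, a contrast that uses no PBS sample. By limma it called 0 probe sets on both arrays (0%), while 815 on array A and 354 on array B had an unadjusted p under 0.05. The probe sets with the smallest p on array A were chosen after their values were seen. They belonged to Cxcl13 (day 35 minus day 27, 0.65 and 0.51 on the log2 scale), Glycam1 (0.64), Mfge8 (0.59) and the macrophage lysozyme Lyz2 (0.36), all higher at day 35 and all with an adjusted p of 0.0821. For Mfge8 the means were 3354 ± 283 at day 35 and 2261 ± 514 at day 27 (SD, n = 3 each). Quantile normalization brought 4 of these probe sets past the threshold, 1 each of Cxcl13 (adjusted p = 0.0298), Lyz2 (0.0298), Glycam1 (0.0408) and Mfge8 (0.0298). Without day 27 replicate 3 the adjusted p of Mfge8 was 2.78e-04, and without day 35 replicate 2 it was 0.73. Madcam1 (0.06, adjusted p = 0.932) and Ubd (-0.09, adjusted p = 0.895) lay near their day 27 level.

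**Figure D2:**
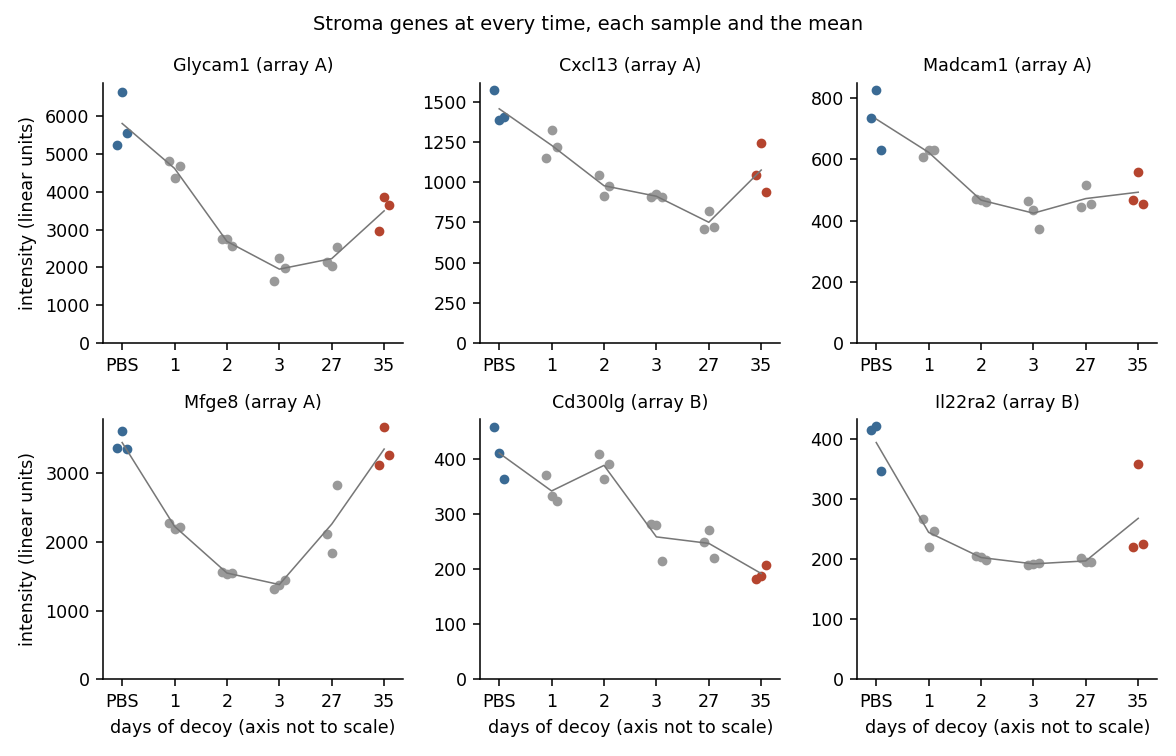
Deposited intensity (linear units) of 6 stroma and vessel genes at each time, with a point per sample, a line through the means, PBS at the left and days 1, 2, 3, 27 and 35 following (axis not to scale). Mfge8 at day 35 overlapped PBS, Glycam1 and Cxcl13 between day 27 and PBS, Madcam1 close to day 27, and Cd300lg at its lowest, while day 35 replicate 2 of Il22ra2 stood above the other 2 day 35 samples.

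Most collagen genes measured were higher at day 35. Of 12 tested collagens 7 rose, 0 fell and 5 did not pass, with a median log2 change of 0.41. The rise was called for the chains of type I collagen (Col1a1 and Col1a2), type III (Col3a1), type V (Col5a2), type VI (Col6a2 and Col6a3) and the fibril-associated Col14a1. With 1 array left out, 5 to 7 were called. Col3a1, the main chain of reticular fibers, read 2075, 2440 and 2418 in day 35 samples, against 1208, 1644 and 1273 in PBS samples. All day 35 samples were higher, at 1.69 times the PBS level (log2 change 0.76, SE 0.13, limma adjusted p = 0.00265). Col1a2 gave the largest rise of any gene on array A by 1 of its probe sets, with 353.7, 486.5 and 407.6 in day 35 samples, against 195.6, 265.1 and 209.2 in PBS samples (log2 change 0.90, SE 0.13, limma adjusted p = 0.000904). Its brighter probe set changed by 0.39 (adjusted p = 0.0204), a call that ended without PBS replicate 1 or day 35 replicate 2 (up to 0.128).

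The rises of Col5a2 (0.52, adjusted p = 0.0013), Col6a3 (0.45, adjusted p = 0.00282) and Col1a1 (0.44, adjusted p = 0.00593) held with each array left out. The second probe set of Col6a2 missed the threshold (0.36, adjusted p = 0.0599). The calls of Col6a2 and Col14a1 (0.42 each, adjusted p = 0.0113 and 0.0224) were lost without PBS replicate 3, and the call of Col14a1 also without PBS replicate 1 or day 35 replicate 2 or 3. The mean log2 change over the 12 collagens, relative to the PBS mean, was 0.31, 0.36 and 0.38 in the day 35 samples and -0.03, 0.07 and -0.03 in the PBS samples. Col15a1, a collagen of basement membrane zones, stood at 0.00 (adjusted p = 0.99).

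Around the collagens, fewer genes were called. Among 27 small proteoglycans and other matrix proteins 2 rose, 1 fell and 24 did not pass, but 6 rose without the 3 samples of low array weight and 5 after quantile normalization. Lum, a proteoglycan that regulates the width of collagen fibrils, read 912, 950.3 and 1126 in day 35 samples, against 616.6, 678.1 and 582.1 in PBS samples (log2 change 0.67, SE 0.095, limma adjusted p = 0.00079). Tnc, a matrix glycoprotein of tissue remodeling, read 719.1, 676.3 and 638.6 in day 35 samples, against 435.6, 445.2 and 482.8 in PBS samples (log2 change 0.58, SE 0.11, limma adjusted p = 0.00296). Both were above every PBS sample. Igfbp7, a growth factor binding protein of vessels, fell to 3311 ± 99.3 in day 35 samples, against 4313 ± 247 in PBS samples (log2 change -0.38, SE 0.072, limma adjusted p = 0.00387), with its second probe set at -0.18 (adjusted p = 0.229).

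Postn, which binds collagen and tenascin, changed by 0.57 with an adjusted p of 0.0578, and the calcification inhibitor Mgp by -0.24 with 0.247. Of 10 basement membrane genes 1 rose, the laminin chain Lamc1 (0.30, adjusted p = 0.00949), whose second probe set stood at -0.05 (adjusted p = 0.757). Of 18 proteases, inhibitors and collagen-processing enzymes 1 rose, the gelatinase Mmp2 (0.33, adjusted p = 0.0136), which lost its call without PBS replicate 1 or day 35 replicate 3 (up to 0.0539) and had a second probe set at 0.23 (adjusted p = 0.145). Of 13 genes of reticular fibroblasts 1 rose, the growth factor receptor Pdgfra (0.30, adjusted p = 0.0491), and only leaving out PBS replicate 1 kept it called (up to 0.237), while its second probe set stood at -0.00 (adjusted p = 0.993). Il7, the lymphocyte survival factor of these cells, changed by -0.06 (adjusted p = 0.67). Of 12 smooth muscle and pericyte genes 1 fell, Mcam (-0.35, adjusted p = 0.0205), whose call ended without PBS replicate 1 or 2 or day 35 replicate 1 or 2 (up to 0.114).

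Several fat cell genes were lower at day 35. Of 22 tested, 7 fell, 0 rose and 15 did not pass, with a median log2 change of -0.35. Pck1, the enzyme that supplies glycerol for fat storage in these cells, was measured on both arrays. It read 631.8, 425 and 640.4 in day 35 samples, against 1229, 1354 and 1340 in PBS samples on array A (log2 change -1.23, SE 0.24, limma adjusted p = 0.00414). On array B it read 223.6, 154.3 and 237.8 in day 35 samples, against 482.2, 528.2 and 453.3 in PBS samples (log2 change -1.27, SE 0.20, limma adjusted p = 0.00211). On both arrays the day 35 samples lay well below the PBS samples, with day 35 replicate 2 the lowest. Cidec, a protein of the lipid droplet surface, read 907.1, 598.5 and 917.7 in day 35 samples, against 1390, 1338 and 1339 in PBS samples (log2 change -0.77, SE 0.16, limma adjusted p = 0.00598).

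The lipase Mgll (-0.78, adjusted p = 0.00386, and -1.02 and -0.19 on its other probe sets), the receptor Acvr1c (-0.69, adjusted p = 0.00326) and the hormone-sensitive lipase Lipe (-0.60, adjusted p = 0.00676) fell as well. Without day 35 replicate 2 the adjusted p of Lipe was 0.0526, and its array B probe set changed by 0.21 (adjusted p = 0.467). The other calls were the transcription factor Cebpa (-0.53, lost without PBS replicate 1 or day 35 replicate 2, adjusted p up to 0.101) and the acyl-CoA binding protein Dbi, whose brightest probe set (-0.78) lost its call (up to 0.135) when day 35 replicate 2 or any of the PBS replicates was left out. Of the most abundant fat cell genes, chosen after their values were seen, the hormone Adipoq read 3167, 2407 and 3691 in day 35 samples, against 5009, 3826 and 3877 in PBS samples (-0.47, adjusted p = 0.0551). The fatty acid binding protein Fabp4 averaged 4563 ± 405 in day 35 samples and 5524 ± 152 in PBS samples (-0.28, adjusted p = 0.0585).

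Summed over the 21 fat cell genes of array A, the intensity was 38380, 33880 and 45150 in day 35 samples, against 50080, 47350 and 46230 in PBS samples, and none of the list was at the floor in any of these samples. The fat genes thus differed among the day 35 samples too: replicate 3 came close to the PBS samples and replicate 2 stood farthest off. The count of lower genes was 4 without day 35 replicate 2 and 13 without day 35 replicate 3. It was 15 without the 3 samples of low array weight and 11 after setting a common median. The labels do not say how much fat was left on each node, and its part in these values was not tested. At day 27 none of the 22 genes was called, with a median of -0.01, but the contrast of day 35 with day 27 called none of them either, with Lipe closest (-0.60, adjusted p = 0.186).

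**Figure D3:**
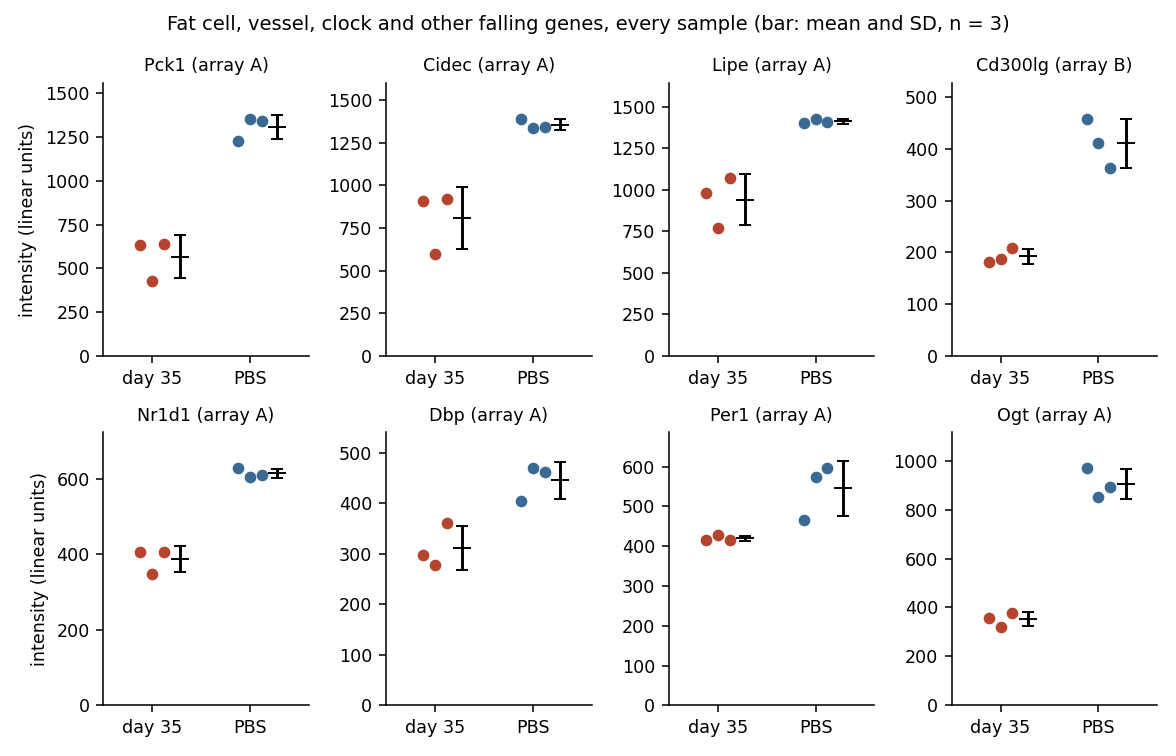
Deposited intensity (linear units) of a probe set that was lower at day 35, for each of 8 genes. Each panel has the day 35 samples at the left (red) and the PBS samples at the right (blue). Bars give the mean and SD of 3 samples. The other tested probe sets of Ogt changed upward with no call, so its panel shows a probe set and not the gene as a whole. All 3 day 35 samples lay below all 3 PBS samples in each panel, and day 35 replicate 2 was the lowest day 35 sample for Pck1, Cidec, Lipe, Nr1d1, Dbp and Ogt.

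Among the gene lists, that of small subunits of the respiratory chain had the most falling genes. The chain comprises the inner membrane complexes that pass electrons to oxygen and make ATP. Of 52 tested genes 39 fell, 0 rose and 13 did not pass, with a median log2 change of -0.43. Complex I, the NADH dehydrogenase, had 19 of 24 genes lower, complex III 3 of 5, complex IV, the cytochrome oxidase, 8 of 10, and ATP synthase 9 of 13. The median change of these complexes lay between -0.47 and -0.40. Ndufc1, a membrane subunit of complex I, read 616.5, 528.8 and 565.8 in day 35 samples, against 1088, 1052 and 1100 in PBS samples (log2 change -0.92, SE 0.12, limma adjusted p = 0.000427). Cox17, the copper chaperone of cytochrome oxidase, read 666, 617 and 565.3 in day 35 samples, against 979.1, 1048 and 1109 in PBS samples (log2 change -0.76, SE 0.11, limma adjusted p = 0.00079). Ndufb6 of complex I (-0.72), Cox5a of complex IV (-0.63, with -0.34 called and -0.26 not called on its other probe sets) and Atp5j of ATP synthase (-0.56) fell too.

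The mean over all 52 genes, relative to the PBS mean, was -0.36, -0.55 and -0.43 in the day 35 samples and -0.02, 0.02 and 0.00 in the PBS samples. The count of lower genes was 19 without day 35 replicate 2, and leaving out each other array gave 27 to 41, and 19 genes were called with every array left out in turn. Large enzymes, carriers and catalytic subunits of the same organelle did not fall in this number: 1 of 37 tested genes fell and 0 rose, with a median of -0.07. This was Etfa, an electron carrier of fatty acid oxidation (-0.46, SE 0.10, limma adjusted p = 0.01). Both lists were written with earlier results of these data known, so the difference between them is a description only. The 3′ to 5′ ratio of Actb given above was higher in the same day 35 samples, and its part in this result was not tested. At day 27, against the same PBS samples, 10 of the 52 were lower, with a median of -0.26.

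Promoters of both groups held motifs known from nuclear genes for mitochondrial proteins, which occurred in 3.86% (NRF1) and 7.05% (ETS) of all 27025 windows. In the 250 bases before the start, 7 of the 45 small-subunit genes with a RefSeq promoter held the NRF1 motif (GCGCA, any base, GCGC) on either strand (15.6%), as did 5 of 31 large mitochondrial genes (16.1%). The ETS motif CCGGAAG, on either strand, was found in 9 of 45 (20%) and in 4 of 31 (12.9%). These shares are descriptions and were not tested.

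**Figure D4:**
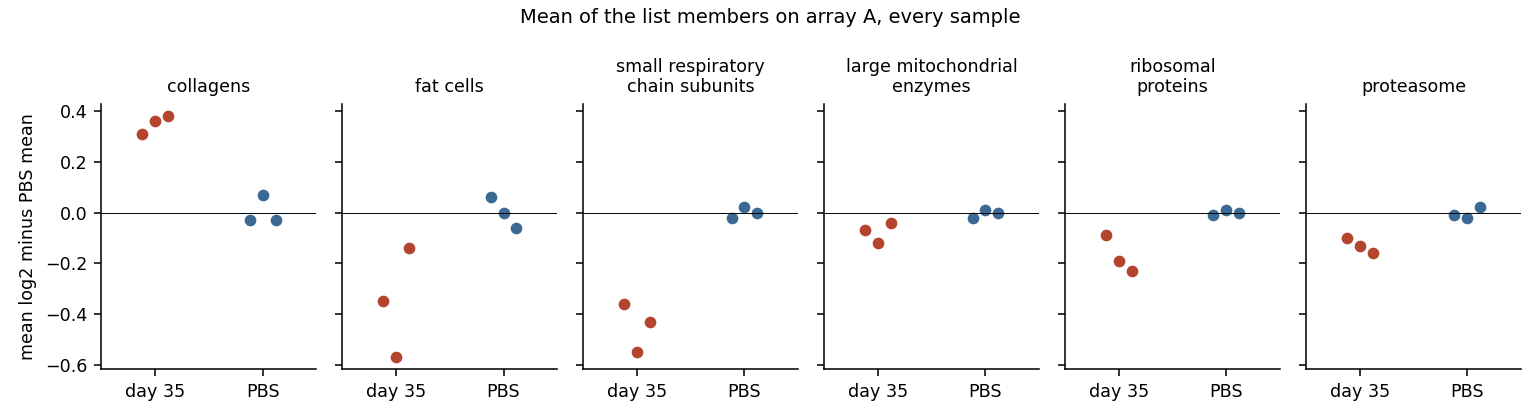
Mean log2 intensity of list members on array A relative to the PBS mean, for each day 35 sample (left of each panel, red) and each PBS sample (right, blue). Collagens stood at 0.31 to 0.38 in day 35 samples, small respiratory chain subunits at -0.55 to -0.36 and large mitochondrial enzymes at -0.12 to -0.04.

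Other sets of small proteins in large complexes moved less. Of 41 cytosolic ribosomal protein genes 12 fell and 0 rose, with a median of -0.16. Rplp2, a protein of the ribosomal stalk, averaged 5189 ± 201 in day 35 samples and 6767 ± 113 in PBS samples (log2 change -0.38, SE 0.072, limma adjusted p = 0.00358). Rps27l, a ribosomal protein-like gene induced by p53, had all 3 of its probe sets lower, and the most changed read 660, 578.8 and 595.8 in day 35 samples, against 1247, 1262 and 1327 in PBS samples (log2 change -1.07, SE 0.12, limma adjusted p = 8.93e-05). Ribosomal protein genes have many near-identical pseudogenes, so what their probe sets measure is uncertain. The count of 12 was 4 without day 35 replicate 2 and 6 without PBS replicate 3. Of 73 mitochondrial ribosomal genes 12 fell, with a median of -0.14, led by Mrps14 (-0.64, adjusted p = 0.00138). That count was 3 without day 35 replicate 2, 2 without PBS replicate 3 and 6 without PBS replicate 1 or 2.

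Of 41 proteasome genes 9 fell, with a median of -0.15, or 5 without day 35 replicate 2. They lay mostly in the proteolytic core and the activator, not in the cap: 2 of 7 alpha and 4 of 10 beta core genes (Psma and Psmb), both tested activator genes (Psme), 1 of 6 cap ATPases (Psmc) and 0 of 14 other cap subunits (Psmd). The core subunit Psmb7 averaged 1178 ± 52.3 in day 35 samples and 1572 ± 69.8 in PBS samples (log2 change -0.42, SE 0.075, limma adjusted p = 0.00282). Psmb9, a core subunit induced by interferon, changed by -0.34 (adjusted p = 0.00743).

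Among 40 genes of the spliceosome, 6 fell and 1 rose (10 fell after setting a common median), and the falls were largest in the small proteins of the Sm and LSm rings that hold the spliceosomal RNAs. Snrpf, an Sm ring protein, gave the largest fall on array B, with 518.6, 446.8 and 432 in day 35 samples, against 1238, 1208 and 1162 in PBS samples (log2 change -1.37, SE 0.21, limma adjusted p = 0.00147). The Sm proteins Snrpg (-0.60, adjusted p = 0.00224) and Snrpe (-0.54, adjusted p = 0.00553) fell on array A. The LSm protein Lsm6 had both probe sets of array B lower (-0.97 and -0.67, the second call lost without PBS replicate 2). The splicing factor Sf3a2 (0.30, adjusted p = 0.0169) was the gene that rose, until PBS replicate 3 or day 35 replicate 2 was left out (up to 0.0867).

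Lymphocyte lists moved little. Of 26 B cell genes 1 rose and 2 fell, with a median of 0.11, and without the 3 samples of low array weight 6 rose. Cd79a read 2627, 2604 and 2783 in day 35 samples, against 3459, 3424 and 3342 in PBS samples (log2 change -0.35, SE 0.072, limma adjusted p = 0.00594), and the survival factor Bcl2 changed by -0.29 (adjusted p = 0.00906, and -0.44 to -0.14 with no call on its 4 array B probe sets). Ralgps2, which activates Ras-like GTPases, rose by 0.37 (adjusted p = 0.0309), until any array but day 35 replicate 3 was left out (up to 0.147), with 0.29 and 0.23 and no call on its other probe sets. Of 25 T cell genes 1 rose and 1 fell: Cd5 (0.31, adjusted p = 0.0424), a brake on T cell receptor signaling, and Lat (-0.29, adjusted p = 0.027), an adaptor of that receptor. Neither call held: that of Cd5 stayed only without day 35 replicate 3, and that of Lat ended without PBS replicate 2 or 3 or day 35 replicate 2. Beside 1.26% higher and 4.0% lower over all genes, the T cell counts do not stand out.

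The immunoglobulin A heavy chain gene was higher at day 35. Igha read 9065, 9078 and 8842 in day 35 samples, against 7170, 6056 and 6498 in PBS samples (log2 change 0.46, SE 0.098, limma adjusted p = 0.00852), and its other 2 probe sets changed by 0.51 and 0.52. Its day 35 level was 1.37 times the PBS level and steady across the 3 samples. Of 19 plasma cell genes it was 1 of 2 that rose, with Tnfrsf13b, and 0 fell. The secretory protein Mzb1 on array B changed by -0.60 with overlapping groups (adjusted p = 0.0953, or 0.0392 with the replicate block). By the brightest probe set of each gene, none of the 10 germinal center genes, 11 natural killer and cytotoxic genes or 13 class II antigen presentation genes was called. With the block on array B, Klhl6 of the germinal center list was (-0.39, adjusted p = 0.0595 without it and 0.0311 with it). Il2rb had 1 probe set called lower (-0.34, limma adjusted p = 0.00676) and another not called (-0.18, adjusted p = 0.254).

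Of 26 macrophage genes 1 rose and 1 fell, or 3 rose without the 3 samples of low array weight. Over all genes 1.26% were higher and 4.0% lower, so the counts with all samples do not set the list apart. Adgre1, the gene of the macrophage marker F4/80, read 702.1, 552.2 and 591.7 in day 35 samples, against 364.9, 479.2 and 437.1 in PBS samples (log2 change 0.53, SE 0.13, limma adjusted p = 0.015). Timd4, a receptor by which resident macrophages take up dying cells, read 229.9, 325.5 and 220.8 in day 35 samples, against 451.6, 395.6 and 385.8 in PBS samples on array B (log2 change -0.69, SE 0.14, limma adjusted p = 0.00964). The groups did not overlap for either gene, but the call of Adgre1 ended without PBS replicate 1 or day 35 replicate 1 (up to 0.0725), and that of Timd4 without PBS replicate 1 or day 35 replicate 1 or 3 (up to 0.0668). The receptor for macrophage colony-stimulating factor, Csf1r, changed by 0.30 (adjusted p = 0.0536).

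Of 21 dendritic cell genes 2 rose, the uptake receptor Ly75 (0.52, adjusted p = 0.018) and the integrin Itgax (0.26, adjusted p = 0.0277), and the brightest probe set of 1 was lower, that of Tmem176a (-0.30, adjusted p = 0.014). Another probe set of Tmem176a on array A was called higher (0.54, adjusted p = 0.0195) and 1 on array B was not called (-0.48), so this gene has no settled direction. Leaving out day 35 replicate 2 ended these 3 calls, PBS replicate 1 or 3 those of Ly75 and Itgax, and day 35 replicate 1 that of Itgax (adjusted p up to 0.132). Of 32 interferon response genes 1 rose, the antiviral GTPase Mx1 (0.43, adjusted p = 0.0243), and 1 fell, Psmb9. The count of higher interferon genes was 3 without day 35 replicate 3 and 7 without the 3 samples of low array weight. The call of Mx1 ended without PBS replicate 1 or 3 or day 35 replicate 1 or 2 (up to 0.132). Of 16 complement genes 1 fell, the alternative pathway protein Cfp (-0.33, adjusted p = 0.0366), which stayed called only without day 35 replicate 1 (up to 0.135) and whose array B probe set stood at 0.12 (adjusted p = 0.46). The interferon and complement counts with all samples lie near the shares over all genes, 1.26% higher and 4.0% lower.

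Cholesterol and fatty acid synthesis genes had 2 of 24 higher and 0 lower, with a median of 0.13. They were Dhcr7 (0.35, adjusted p = 0.0136) and Sqle (0.58, adjusted p = 0.0159), enzymes of cholesterol synthesis, and the call of Sqle also ended without PBS replicate 2 or day 35 replicate 3 (up to 0.0806). Sqle read 402, 502.8 and 541.5 in day 35 samples, against 360.7, 308.9 and 293.5 in PBS samples. Without day 35 replicate 2 or PBS replicate 3 no gene of the list was called, and without day 35 replicate 1 there were 6.

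Of 12 circadian clock genes 3 fell and 0 rose. Nr1d1, the repressor known as Rev-erb alpha, read 407.4, 348.3 and 407.7 in day 35 samples, against 629.5, 604.6 and 610.5 in PBS samples (log2 change -0.67, SE 0.10, limma adjusted p = 0.00108). Its values lay far apart between the groups and close together within them. Dbp, a clock-controlled transcription factor, fell on both probe sets (-0.52 and -0.72), and the first call ended without day 35 replicate 2 (adjusted p = 0.0639). Per1 (-0.37, adjusted p = 0.0356) stayed called only without PBS replicate 1 (up to 0.167). Arntl, whose transcript peaks opposite to that of Nr1d1, changed by 0.20 (adjusted p = 0.197). The labels do not give the hour of harvest, so hour and treatment cannot be told apart.

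By the brightest probe set of each gene, 1 of 31 cell cycle genes fell, Cks1b, a small partner of cyclin-dependent kinases (-0.62, SE 0.11, limma adjusted p = 0.00296). Cks2 had 1 probe set called lower (-0.70, limma adjusted p = 0.00108) and another not called (-0.30, adjusted p = 0.171). Of 27 nucleolar genes 2 fell, Nop58 (-0.59, adjusted p = 0.00467) and Npm1 (-0.24, adjusted p = 0.0475). Npm1 stayed called only without PBS replicate 2 (up to 0.215), and its other probe set stood at -0.13 (adjusted p = 0.447). Of 21 immediate early genes 1 rose, Egr1 (0.34, adjusted p = 0.00585), while Fos and Jun did not pass (0.03 and 0.10). Of 25 heat shock genes and chaperones, 1 was called higher and 1 lower by its brightest probe set, Canx (0.47, adjusted p = 0.0267) and Fkbp4 (-0.37, adjusted p = 0.0202). The other probe sets of Canx stood at 0.35 on array A and -0.05 on array B and those of Fkbp4 at 0.04 on array A and 0.39 on array B, none of them called, so neither gene has a settled direction. Each call ended with at least 3 of the 6 arrays left out singly. The nucleolar and heat shock counts lie near the shares over all genes, 1.26% higher and 4.0% lower.

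Among other tissues that could adhere to a node, none of the 4 tested genes each of pancreas, intestine and mesothelium was called. Of 11 red cell genes 1 fell, the globin Hbb-b2 (-1.19, adjusted p = 0.0192). It read 168.4, 117.2 and 304.5 in day 35 samples, against 322, 548.4 and 422.4 in PBS samples, and day 35 replicate 2 lay below the floor used in the fit. Its call ended without PBS replicate 2 or 3 or without day 35 replicate 1 or 2 (up to 0.123). The beta globin genes are near-identical and its probe set may read several of them.

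**Figure D5:**
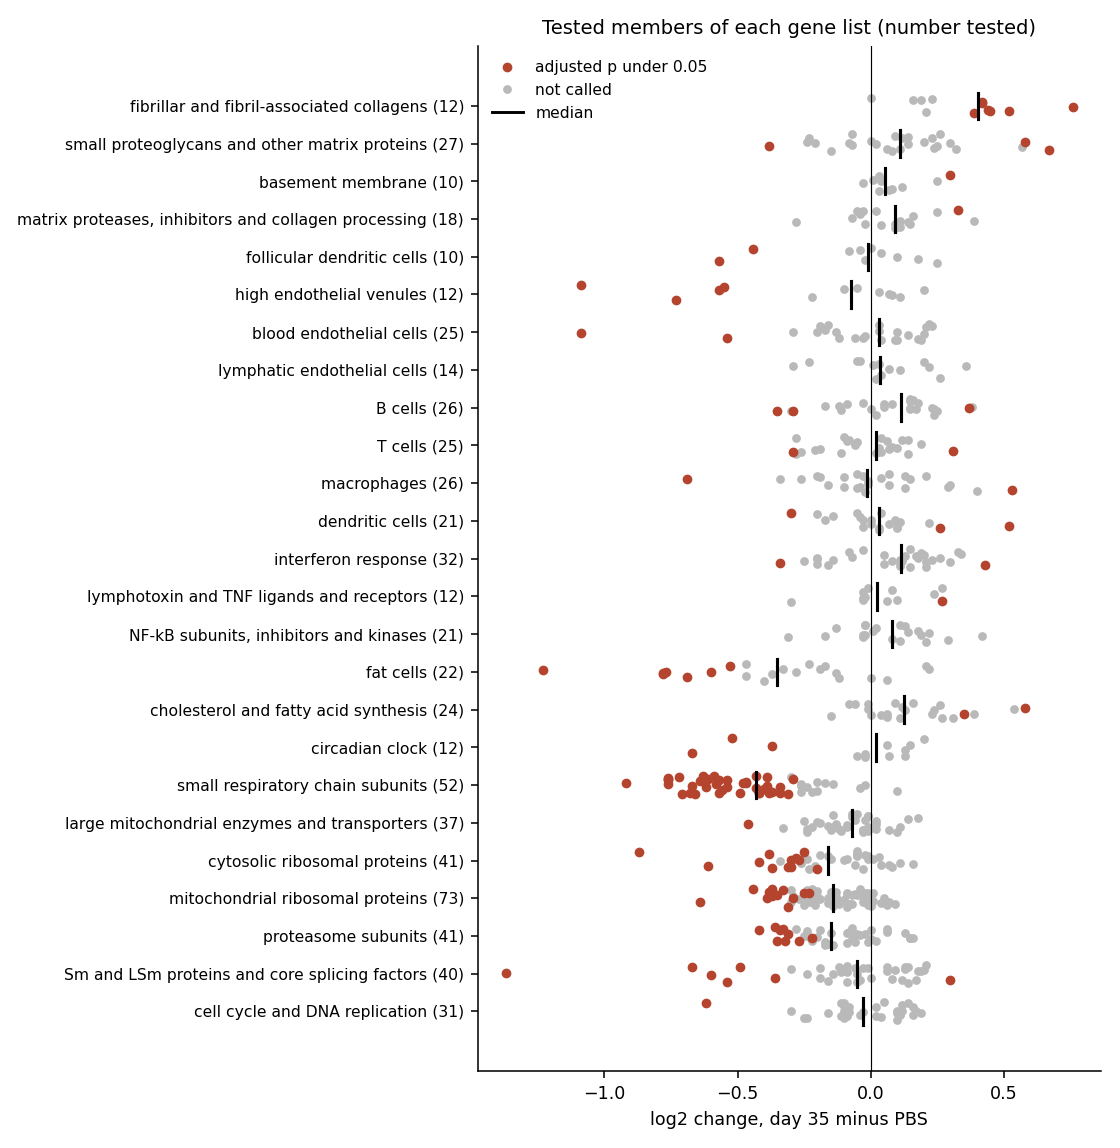
Log2 change, day 35 minus PBS, of each tested member (points) of 25 gene lists, with the number tested in parentheses, called members in red and a bar at the list median. Collagens lay to the right with a median of 0.41, fat cell genes (-0.35) and small respiratory chain subunits (-0.43) to the left, and most lymphocyte, endothelial and signaling lists around 0.

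Beyond the lists, the largest single changes often rested on 1 of several probe sets. The largest fall on array A was that of Ogt, the enzyme that attaches N-acetylglucosamine to nuclear and cytosolic proteins. Its called probe set read 355.6, 321.9 and 378.4 in day 35 samples, against 970.1, 850.8 and 893.4 in PBS samples (log2 change -1.36, SE 0.13, limma adjusted p = 2.57e-05). Its 4 other probe sets changed by 0.11 to 0.30 with no call, so the gene as a whole cannot be given a direction. The actin-bundling protein Fscn1 (0.76 on the called probe set, -0.20 to -0.16 on the other 3) and the choline transporter Slc44a2 (0.77, with -0.07 and -0.13 on the others, and lost without any PBS replicate or day 35 replicate 2) showed the same, as did the RNA-binding protein Pum2 (-0.88, with -0.20 to 0.29 on the others).

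Of 102 genes called higher on array A that had at least 2 tested probe sets, 96 were called on 1 only, and 34 had a probe set of the opposite sign. Of 236 genes called lower, 155 were called on 1 only, 43 on all, and 87 had a probe set of the opposite sign. Genes with every tested probe set lower included Rps27l, Dbi (-1.08, -0.93 and -0.78), Rgcc, a regulator of the cell cycle (-0.89 and -0.74), Atp5k of ATP synthase (-0.92, -0.54 and -0.51) and Ndufc1 (-0.92 and -0.68). Single probe sets also fell for the glutathione transferase Gsta3 (-0.88, adjusted p = 0.00112), for Slirp, a protein that stabilizes mitochondrial RNA (-0.93, adjusted p = 0.00244), and on array B for Tmem256 (-0.95, adjusted p = 0.00156). Dapl1, a gene of naive lymphocytes and epithelia on array B, averaged 276.4 ± 46.0 in day 35 samples and 544.2 ± 70.2 in PBS samples (log2 change -0.98, SE 0.14, limma adjusted p = 0.000912). On array B the largest rises were those of 5430434I15Rik (0.65), Rpain (0.64), Stpg1 (0.62), Mylk3 (0.57) and Rhot1 (0.57), and of these Rpain alone was called with each array left out, although its 2 other probe sets changed by 0.03 and -0.20. The other probe sets of Rhot1 stood at -0.03 on array A and 0.05 on array B.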

How the data were processed

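Mouse mesenteric lymph node RNA was read on Affymetrix arrays A and B, with 18 samples each. The authors deposited 1 linear intensity per probe set and array. Software, background correction and scaling were not given in the sources used here; linear values are printed as deposited. Each table was analysed on its own. A floor was set at the 20th percentile of all non-control values (122.6 for array A, 76.57 for array B) before log2 was taken. Probe sets above the table's median (286.7 and 157.9) on at least 3 arrays were kept. All 6 times entered 1 fit in limma 3.58.1 (R 4.3.3: lmFit and eBayes with an intensity trend), and p-values were adjusted by Benjamini-Hochberg over each table, with 0.05 as the threshold for a call.

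Log2 changes, SEs and adjusted p are from that fit, and the number of arrays limits their precision. GEO's platform annotation gave 20380 of 22626 probe sets of array A 1 gene symbol, 691 several and 1555 none. On array B it gave 14673 of 22511 probe sets 1 symbol, 233 several and 7605 none. Named genes were the largest called changes without overlap between groups (14 each way on array A, 8 on array B), up to 5 genes of smallest p in each list, a set of lymphotoxin-related genes, and some picked later, which are so marked or which make up a small count. The samples, gene lists and members were chosen with earlier results of these data known. The main fit did not take sample numbers as pairs, and the replicate block is given as an alternative. Deviations of same-numbered day 35 and PBS samples had r of 0.494, 0.233 and 0.338 on array B. On array A these were 0.251, 0.075 and 0.371. Same-numbered day 35 and day 27 samples on array B had r of 0.339, -0.383 and 0.557, so the labels and values do not settle whether numbers mark pairs. On simulated arrays of this spread the fit called 76.2% of probe sets changed by 0.5 on the log2 scale on array A and 51.2% on array B, and 98.8% of those changed by 1 on each. The simulation drew samples independently and changed fewer probe sets than were called here, so these rates need not hold for the real arrays. No protein lengths were computed, since no protein table was used here.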

Additional observations from a re-analysis of the deposited data

Results flagged for a closer look

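The arrays' quality controls, which the comparisons did not use, differed between the groups. The 3′ to 5′ ratio of Actb averaged 1.13 in day 35 samples and 1.01 in PBS samples on array A, and 1.21 in day 35 samples and 1.04 in PBS samples on array B, with every day 35 sample above every PBS sample. Its part in the results was not tested.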

How the results depend on the processing

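The 900 calls of array A and the 449 of array B stayed within 1.5 times under quantile normalization, a common median, a lower floor, no filter, a filter on 9 arrays and no intensity trend. So did array A with the replicate block (922) and with the 2 groups alone (691). Other settings moved them, and the cause was not tested. Array weights gave 3046 calls on array A and 1432 on array B, and their estimation did not converge on array A. Leaving out 3 samples of low array weight, day 3 replicate 3, day 27 replicate 2 and day 35 replicate 3, gave 1831 on array A (942 higher, 889 lower) and 177 on array B. Their weights were low on array A only (0.269, 0.232 and 0.287), from the estimation that did not converge. On array B the same samples had weights of 0.503, 1.1 and 0.823, and the lowest was day 1 replicate 3 at 0.315. A change of at least 1.5-fold left 127 and 116. On array B the replicate block gave 1327 calls and the 2 groups alone 1191. With 1 array left out the counts ran between 333 and 763 on array A and between 125 and 239 on array B. Day 35 minus day 27, with 0 calls, gave 4 on array A after quantile normalization, 464 with array weights, 1 with the replicate block and 6 without the 3 low-weight samples, and 0 to 6 with 1 array left out. On array B it gave 7 with no filter. Of 241 named probe sets, 112 of them called, none reversed under any setting; 60 fell short of 1.5-fold, 38 were lost without day 35 replicate 2 and 33 without PBS replicate 3. With the block, besides Mzb1 and Klhl6, the array B probe sets of Gpihbp1, Dkc1 and Nr4a2 passed the threshold (adjusted p of 0.0427, 0.0292 and 0.0449).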

Other observations

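A list of 19 glucocorticoid-responsive genes, written after values of these data were seen and so no evidence of its own, had 9 lower, 0 higher and 10 not called at day 35, with a median log2 change of -0.35. Its members included Rhob, a small GTPase (777 ± 107 in day 35 samples and 1139 ± 78.2 in PBS samples, log2 change -0.56, limma adjusted p = 0.00507), and Tsc22d3, the glucocorticoid-induced leucine zipper (715.9 ± 75.2 in day 35 samples and 1043 ± 138 in PBS samples, -0.54, adjusted p = 0.0187). The list shares Per1 and Cxcr4 with lists described above. The glucocorticoid targets Fkbp5 (-0.17), Sgk1 (-0.08) and Nfkbia (0.11) were not called. With 1 array left out, 2 to 6 of the list were called lower.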
